A study of Mus musculus with 12 samples.

Results

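The transforming growth factor β (TGF-β), activin and bone morphogenetic protein (BMP) pathway was followed in cultured mouse fibroblasts through 43 genes: ligands, receptors, extracellular regulators, SMADs and direct target genes. The genes were taken by symbol from the 56941 genes of the count table, and all 43 were found there. Bulk RNA-seq had been carried out on 3T3-L1, a wild-type line of fibroblasts from mouse embryos that can be differentiated into adipocytes, in 4 conditions of 3 libraries each. The cells received vehicle by their treatment label, though the library names read untreated (control), the type 2 cytokines IL-4 with IL-13 (named IL-4/13), the inflammatory cytokines TNF-α, IL-17A and IL-1β (named Inf), or all 5 (named IL-4/13 + Inf, or both where values of the 4 conditions follow each other). By the study's methods the doses were 50 ng/mL for IL-4, IL-13 and IL-17A, 20 ng/mL for TNF-α and 0.5 ng/mL for IL-1β, and exposure lasted 24 hours. As a single cultured line, 3T3-L1 is a model without the other cell types of a tissue.

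Ligands of this superfamily signal through pairs of type I and type II serine/threonine kinase receptors, which phosphorylate SMAD2 and SMAD3 for TGF-β and activin, or SMAD1 and SMAD5 for BMPs. The phosphorylated SMADs join SMAD4 and enter the nucleus, where they act on target genes such as the Id genes and Tgfbi. The pathway is held in check outside the cell by latency proteins and soluble antagonists, and inside it by SMAD6, SMAD7 and co-repressors, and in fibroblasts it is best known for its control of matrix production and of myofibroblast formation.

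Total counts ran from 13446005 to 20775769 per library. Euclidean distances between libraries over the log2 CPM of all genes tested were smaller within conditions (37.72 to 44.76) than between them (48.31 to 95.32), so no library stood apart. The summed level of 10 fibroblast markers, in CPM (counts relative to the TMM-scaled library total), was 14635 to 16689 in control, 12643 to 13308 with IL-4/13, 12639 to 13657 with Inf and 10625 to 10867 with both, with Fap, a marker of activated fibroblasts, barely detected. The markers did not move together: from control to Inf, the means of Col1a1 (3893 to 2493 CPM), Col1a2 (5541 to 3813) and Vim (3625 to 2332) were lower, and those of Dcn (103 to 1756), Lum (2.25 to 22.4), Pdgfra (196 to 385) and Pdgfrb (269 to 481) were higher. The adipocyte genes Adipoq, Lep, Plin1, Cidec and Cfd were at 3 counts or fewer in every library. So were the macrophage genes Adgre1 and Itgam and the keratinocyte genes Krt5, Krt14, Krt1 and Epcam. Other genes of these lists were detected, such as Csf1r (3.54 CPM in control), Lyz2 (2.89) and Krt10 (4.84). From control to Inf, the means of Fabp4 (11.3 to 30.1 CPM) and Mrc1 (0.181 to 2.11) were higher. Those of Pparg (18.1 to 7.71) and Plin4 (13.8 to 9.05) were lower. The summed marker levels were 32.8 to 53.4 CPM for adipocytes, 6.16 to 11.8 for macrophages, 0.343 to 1.64 for endothelial cells and 3.27 to 6.37 for keratinocytes. The part of these marker differences in the results was not tested. In bulk RNA, fewer cells of a type and less RNA per cell cannot be told apart. No label says that the libraries of a condition came from separate cultures, so the p-values measure the spread between these samples, which may be technical.

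Inf lowered both activin subunit genes Inhba and Inhbb, the receptor genes Tgfbr2 and Acvr2a and the latency genes Ltbp1, Ltbp3 and Ltbp4. It also lowered the antagonist gene Chrd, the SMAD genes Smad3 and Smad7 and the targets Id1, Id2 and Tgfbi. Upregulated with Inf were the ligand genes Tgfb1 and Tgfb2, the co-receptor gene Tgfbr3 and the antagonist genes Fst, Fstl1, Grem1 and Nbl1. So were Ltbp2, Bmp1, Smad1, Skil and the target Id3. IL-4/13 alone upregulated Inhbb and lowered Acvr2a, Fstl1 and Id1. A gene was called where edgeR's quasi-likelihood test gave a Benjamini-Hochberg adjusted p under 0.05 over all 14810 genes tested and the log2 fold change lay beyond 0.25. Of the 43 pathway genes, 38 had enough counts to be tested. With IL-4/13 alone, 1 of the 38 was called higher and 3 lower than in control, beside 2.78% and 2.57% of all genes tested, and the median log2 fold change was -0.06. The 3 lower calls became 6 without control replicate 2 and 1 without IL-4/13 replicate 2. With Inf, 12 were called higher (31.6%) and 13 lower (34.2%), beside background shares of 16.3% and 15.3%, and the median was -0.11. IL-4/13 + Inf against control gave 10 higher and 13 lower, beside 13.4% and 11.5%, with a median of -0.17. In IL-4/13 + Inf against Inf alone, 5 were called higher and 9 lower, beside 7.55% and 7.00%, with a median of -0.03. These 9 lower calls became 5 without Inf replicate 2 and also 5 without IL-4/13 + Inf replicate 3. The medians over all genes tested were within 0.01 of 0 in these comparisons. The comparisons against control share the control libraries and are not independent of each other.

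**Figure D1:**
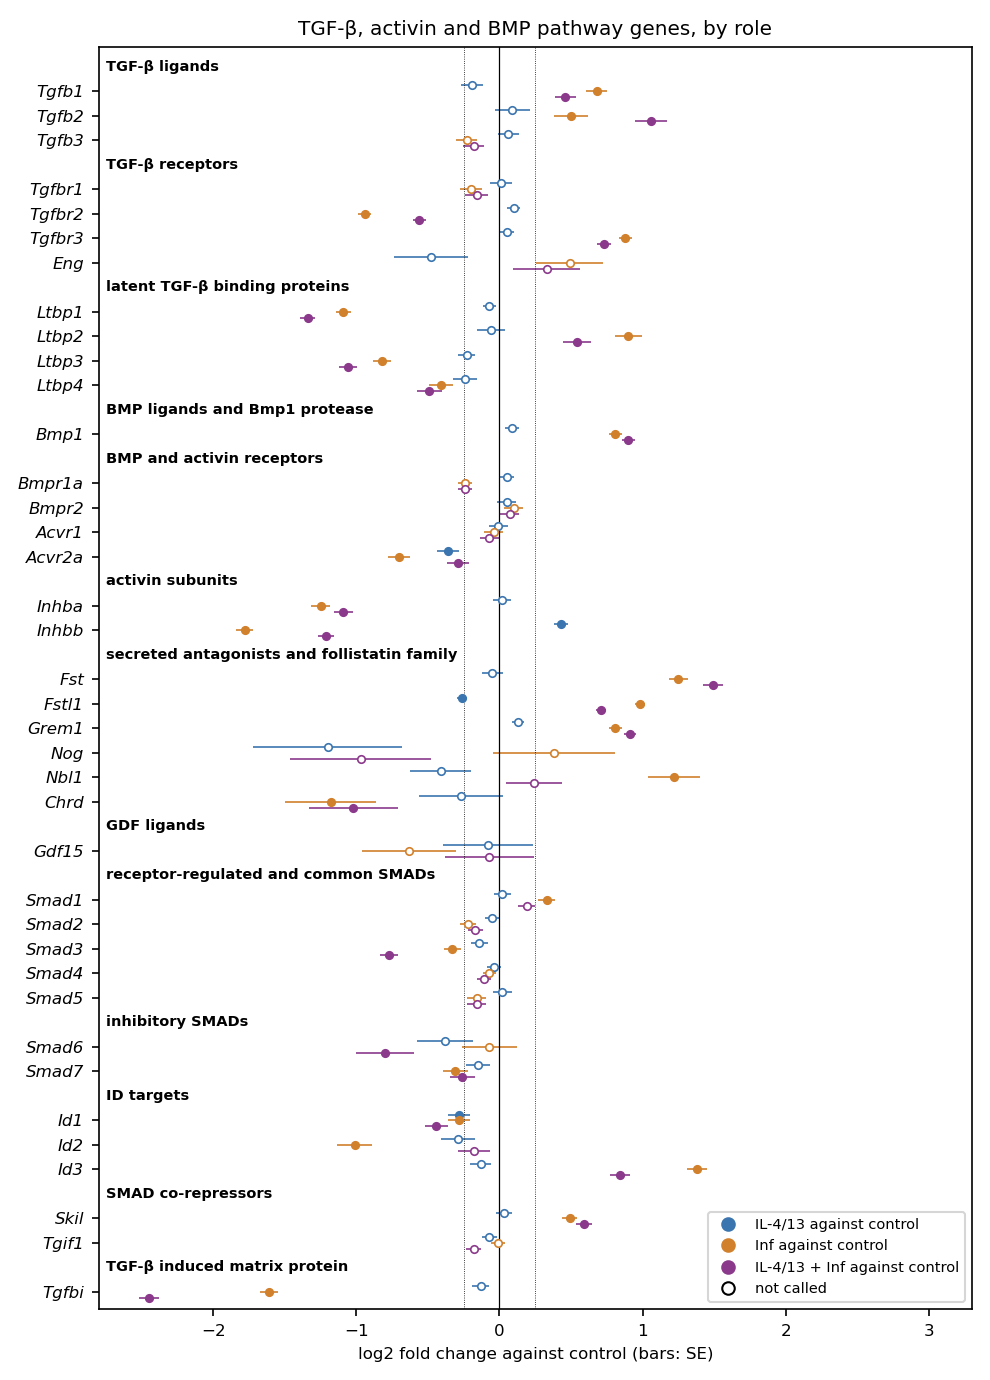
Log2 fold changes against control (x axis) of the 38 tested pathway genes, grouped by role, for the 3 treated conditions. Points are fitted values, filled where the gene was called, with standard errors from the joint fit of all 12 libraries (3 per condition). Dotted lines mark ±0.25. Both activin subunit genes lie left of 0 under Inf and under IL-4/13 + Inf, whereas Fst, Fstl1 and Grem1 lie right of it, and Tgfbi reaches -2.45 in IL-4/13 + Inf.

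In control cells, a pair of antagonist genes, Fstl1 and Grem1, had the highest levels per transcript length. Fstl1, which encodes a secreted follistatin-like glycoprotein, stood at 221 CPM per kb of exon in control, followed by Grem1, which encodes the BMP antagonist gremlin 1, at 83.3. The next were Id1 (43.1 CPM per kb), Ltbp1 (32.0) and Smad4 (31.7), of which the last pair differed by less than the spread of Ltbp1 between libraries. The TGF-β ligand genes were lower in this order. Tgfb3 stood at 9.59 CPM per kb, Tgfb1 at 7.50 and Tgfb2 at 1.77 in control. At this depth, the ligand genes Bmp2, Bmp4, Gdf6 and Gdf10 and the antagonist gene Fstl3 were at or near the limit of detection. Bmp2 and Gdf10 had no count in any of the 12 libraries, where 3 counts correspond to 0.146 to 0.221 CPM, and Bmp4 reached at most 4 counts, Fstl3 at most 2 and Gdf6 at most 1. These 5 genes were not tested.

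Among the 3 TGF-β ligand genes, Inf upregulated Tgfb1 and Tgfb2 and not Tgfb3. Tgfb1, which encodes the prototype ligand of the family, went from 37.8 ± 4.51 CPM (SD, n = 3) in control to 60.6 ± 2.94 in Inf, a log2 difference of 0.68 (SE 0.0734, adjusted p = 5.9e-09), and stood at 33.2 ± 0.607 in IL-4/13 and 52.1 ± 3.73 in IL-4/13 + Inf. For Tgfb1, all IL-4/13 + Inf libraries lay below Inf (-0.22, adjusted p = 0.026), and only the fold threshold was missed. This difference was called without IL-4/13 + Inf replicate 1. Without control replicate 2, Tgfb1 was also called lower in IL-4/13 than in control. Tgfb2 had its highest level with all 5 cytokines. Its CPM in the 3 libraries was 11.3, 10.5 and 9.00 in control, 11.3, 9.07 and 12.5 with IL-4/13, 15, 14.4 and 14.0 with Inf and 19.5, 21.2 and 23.8 with both. The IL-4/13 + Inf libraries lay above all others, and those of control and IL-4/13 overlapped. Tgfb2 was called higher in Inf than in control (log2 fold change 0.50, SE 0.117, adjusted p = 9.1e-04) and higher again in IL-4/13 + Inf than in Inf (0.57, SE 0.107, adjusted p = 1.9e-04). The change that IL-4/13 made with Inf exceeded that without Inf by 0.48 (SE 0.163), a difference that was not called (adjusted p = 0.12). Tgfb3 stood at 32.4 ± 2.30 CPM in control and 27.7 ± 1.35 in Inf and was not called in any comparison. In Inf all its libraries lay below control (-0.23, adjusted p = 0.014), and it missed only the fold threshold. It was called lower in Inf without control replicate 2 or Inf replicate 3, and with library size alone.

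Seen as a pool, the ligand transcripts had another make-up with Inf. Per kb of exon, Tgfb3 made up 50.9% ± 2.36 (SD, n = 3) of the 3 transcripts in control and 36.1% ± 0.704 in Inf, while Tgfb1 made up 39.7% ± 1.86 and 52.9% ± 0.707. Tgfb2 accounted for 9.41% ± 1.14 in control, 11% ± 0.789 in Inf and 16.5% ± 1.72 in IL-4/13 + Inf. The summed level of the 3 was 17.3 to 20.3 CPM per kb in the control libraries and 22.0 to 23.7 in those with Inf.

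TGF-β is secreted in a latent form, bound to latent TGF-β binding proteins (LTBPs) that anchor it to fibrillin and fibronectin fibres. Inf lowered 3 of the 4 LTBP genes and upregulated the other, Ltbp2, beside 15.3% lower and 16.3% higher of all genes tested. The LTBP2 protein, unlike the rest of the family, is not known to bind latent TGF-β. Ltbp1 read 347, 323 and 356 CPM in control, 336, 310 and 330 with IL-4/13, 168, 164 and 150 with Inf and 133, 141 and 130 with both. All libraries with Inf were below all without it, and the log2 fold change of Inf against control was -1.09, SE 0.0497 (adjusted p = 1.0e-17). In IL-4/13 + Inf the level was lower than in Inf alone by the narrowest of margins (-0.25, SE 0.0506, adjusted p = 4.0e-04), and the call was lost on leaving out control replicate 1, Inf replicate 1 or 2, or IL-4/13 + Inf replicate 1 or 3, with values from -0.29 to -0.22, and also under DESeq2, with DESeq2's size factors and with no filter on low counts.

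Ltbp3, a further carrier of latent TGF-β, was also lower with Inf. Its values were 241, 202 and 246 CPM in control, 195, 186 and 208 with IL-4/13, 134, 136 and 122 with Inf and 113, 110 and 108 with both, which gave log2 fold changes against control of -0.82 (SE 0.0622, adjusted p = 1.6e-10) in Inf and -1.06 (SE 0.0628, adjusted p = 1.4e-12) in IL-4/13 + Inf. The control and IL-4/13 libraries overlapped. Ltbp3 passed the p threshold with IL-4/13 alone (-0.23, adjusted p = 0.021) but not the fold threshold. It was called lower there without control replicate 2 or IL-4/13 replicate 3. In IL-4/13 + Inf all libraries lay below Inf (-0.25, adjusted p = 0.0064), and again only the fold threshold was missed. That difference was called without Inf replicate 3 or IL-4/13 + Inf replicate 1, and with a filter at a mean of 50 counts. Ltbp4, whose product acts in elastic fibre assembly, stood at 47.0 ± 4.93 CPM in control, 39.9 ± 0.852 with IL-4/13, 35.3 ± 5.04 with Inf and 33.5 ± 1.45 with both, and was called lower in the last pair. Ltbp2 instead read 128, 108 and 133 CPM in control, 114, 112 and 129 with IL-4/13, 248, 241 and 198 with Inf and 171, 186 and 179 with both. Every library with Inf was above every library without it. Ltbp2 was called higher in Inf than in control (0.90, SE 0.0968, adjusted p = 1.5e-05) and lower in IL-4/13 + Inf than in Inf (-0.36, SE 0.0948, adjusted p = 0.020), and the second call was lost without Inf replicate 1 or 2 or IL-4/13 + Inf replicate 1 or 3. Strand handling of the counting is not given in the sources used here. Exons of Ltbp2 share 9.34% of their length with the antisense gene D030025P21Rik, which held 1340 counts to 33149 for Ltbp2 and had a log2 fold change of 1.78 in Inf.

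**Figure D2:**
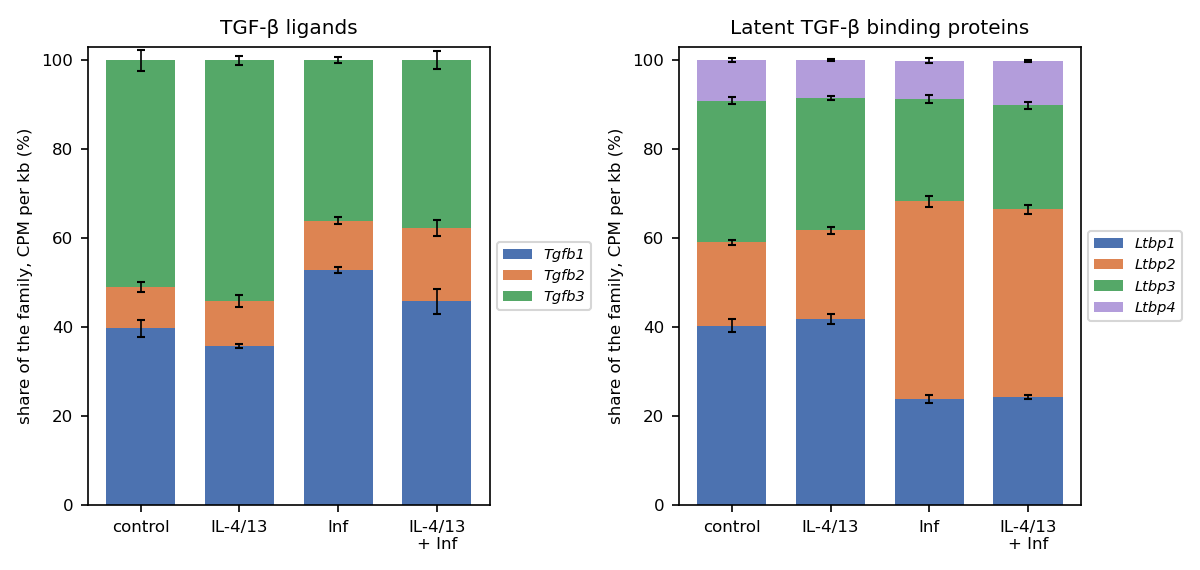
Shares of the TGF-β ligand transcripts (left) and of the LTBP transcripts (right) in each condition, as percent of the family's summed CPM per kb of exon. Stacked bars are means of 3 libraries and error bars are SD. Tgfb1 goes from 39.7% in control to 52.9% in Inf, and Ltbp2 from 18.8% to 44.4%.

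Per kb of exon, Ltbp1 was the most abundant LTBP transcript in control, at 40.3% ± 1.42 of the 4, and Ltbp2 in Inf, at 44.4% ± 1.21 against 18.8% ± 0.542 in control. In IL-4/13 + Inf the shares of Ltbp1 and Ltbp2 were 24.3% ± 0.360 and 42.2% ± 0.987. The summed level was 72.2 to 83.9 CPM per kb in the control libraries and 50.9 to 53.5 in those of IL-4/13 + Inf.

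The TGF-β receptor genes moved in opposite directions. Tgfbr2 encodes the type II receptor that binds the ligand first and Tgfbr3 encodes betaglycan, a co-receptor that presents TGF-β2 and can also bind inhibins. Tgfbr2 was at 219, 214 and 226 CPM in control, 240, 229 and 238 with IL-4/13, 117, 117 and 110 with Inf and 147, 155 and 145 with both. The libraries of the 4 conditions did not overlap. Inf lowered it (log2 fold change -0.94, SE 0.0455, adjusted p = 5.3e-17), and with IL-4/13 added to Inf it was higher than with Inf alone (0.38, SE 0.0459, adjusted p = 2.3e-07). Tgfbr3 went from 136 ± 7.46 CPM in control to 251 ± 11.3 in Inf (0.88, SE 0.0475, adjusted p = 6.4e-16) and 226 ± 5.71 in IL-4/13 + Inf. All its IL-4/13 + Inf libraries lay below Inf (-0.15, adjusted p = 0.016), a difference that did not pass the fold threshold. The ratio of Tgfbr3 to Tgfbr2 per kb was 0.774 ± 0.0234 in control, 0.744 ± 0.00400 with IL-4/13, 2.74 ± 0.0434 with Inf and 1.90 ± 0.0634 with both. Tgfbr1, the type I receptor, stood at 38.8 ± 2.61 CPM in control and 33.7 ± 2.17 in Inf, and Eng, the endothelial co-receptor endoglin, at 1.97 ± 0.127 and 2.75 ± 0.429, and neither was called in any comparison. Tgfbr1 passed the p threshold in Inf (-0.20, adjusted p = 0.041) but not the fold threshold.

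Of the 4 BMP and activin receptor genes, only Acvr2a, which encodes a type II receptor for activins, was called. Acvr2a read 45.0, 41.7 and 42.5 CPM in control, 33.4, 34.1 and 33.2 with IL-4/13, 23.7, 29.9 and 25.5 with Inf and 35.6, 37.0 and 33.3 with both. IL-4/13 alone lowered it (-0.36, SE 0.0760, adjusted p = 0.0017) and so did Inf (-0.70, SE 0.0771, adjusted p = 8.1e-09). IL-4/13 + Inf, however, lay above Inf without overlap (0.41, SE 0.0781, adjusted p = 1.8e-04) and below control (-0.29), the last call being lost without control replicate 1 or IL-4/13 + Inf replicate 3. Exons of Acvr2a overlap those of Orc4, whose values are given with the interaction below. The receptor genes Bmpr1a (152 ± 5.24 CPM in control), Bmpr2 (91.0 ± 5.28) and Acvr1 (43.9 ± 1.15) had log2 fold changes between -0.24 and 0.10 against control in all treated conditions. Bmpr1a passed the p threshold in Inf (-0.24, adjusted p = 3.5e-04) and in IL-4/13 + Inf (-0.24, adjusted p = 2.7e-04) but not the fold threshold. It was called lower in both with library size alone, and in Inf without Inf replicate 2. In IL-4/13 + Inf it was also called lower without control replicate 1 or 3 or IL-4/13 + Inf replicate 1 or 2.

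Both activin subunit genes were strongly downregulated by Inf. Inhba and Inhbb encode the βA and βB chains, which dimerise into activins and join an α chain in inhibins. Inhba was at 114, 125 and 118 CPM in control, 122, 126 and 113 with IL-4/13, 48.8, 56.0 and 45.0 with Inf and 55.7, 53.3 and 58.7 with both. Its libraries separated by the presence of Inf and overlapped otherwise, and the log2 fold change of Inf against control was -1.25, SE 0.0656 (adjusted p = 1.5e-15). Inhbb also changed with IL-4/13. It read 97.1, 101 and 101 CPM in control, 134, 136 and 134 with IL-4/13, 26.8, 30.9 and 29.2 with Inf and 43.1, 44.5 and 41.8 with both, with no overlap between conditions. Inhbb was the only pathway gene called higher with IL-4/13 alone (0.43, SE 0.0518, adjusted p = 4.9e-07). It fell by 1.78 on the log2 scale with Inf (SE 0.0581, adjusted p = 2.2e-21), and with IL-4/13 added to Inf it was higher than with Inf alone (0.57, SE 0.0611, adjusted p = 2.6e-08).

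Follistatin, the product of Fst, binds activins and keeps them from their receptors. Fst was at 31.3, 32.0 and 34.1 CPM in control, 31.2, 32.1 and 31.1 with IL-4/13, 67.2, 82.6 and 81.8 with Inf and 91.9, 93.4 and 88.5 with both. Libraries with Inf were all above those without it (Inf against control 1.25, SE 0.0693, adjusted p = 1.3e-15). The difference between IL-4/13 + Inf and Inf, 0.24 (adjusted p = 0.0061), did not pass the fold threshold. Relative to the sum of Inhba and Inhbb per kb, Fst stood at 0.168 ± 0.00777 in control and 0.136 ± 0.00156 in IL-4/13, compared with 1.15 ± 0.118 in Inf and 1.05 ± 0.0356 in IL-4/13 + Inf.

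**Figure D3:**
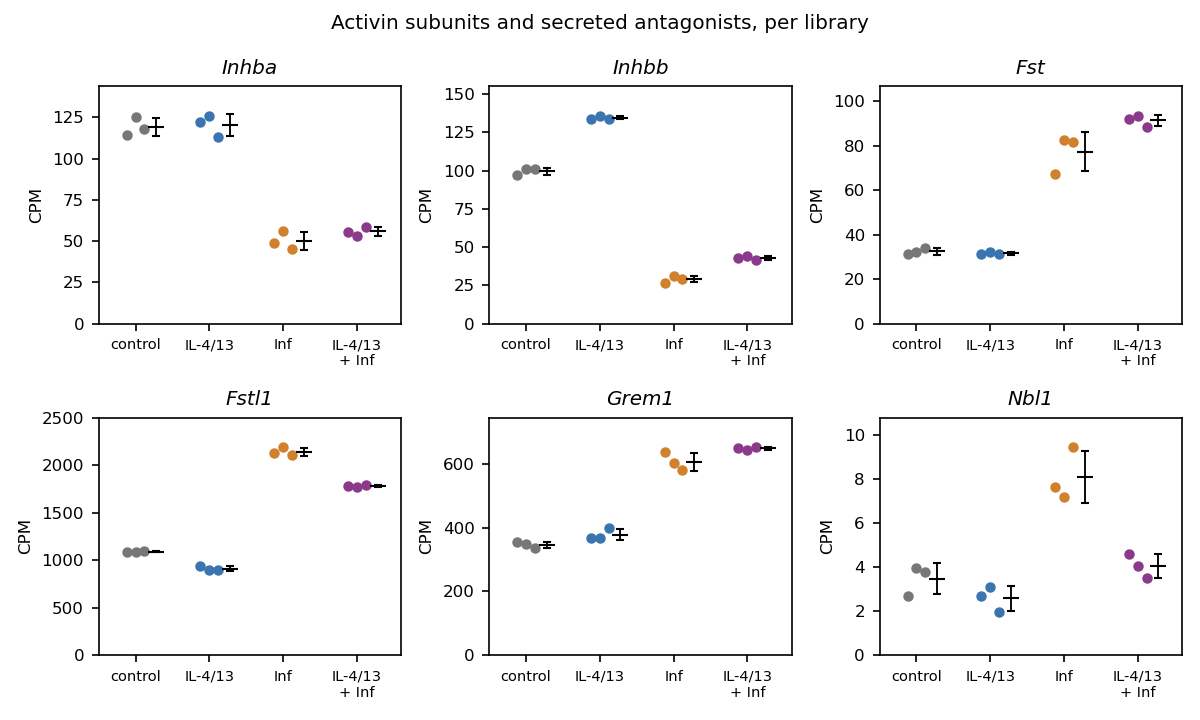
CPM of Inhba, Inhbb, Fst, Fstl1, Grem1 and Nbl1 in the 12 libraries (points), with the mean and SD of each condition (n = 3) beside them, on axes that start at 0. Inhbb spans 26.8 to 30.9 CPM in Inf and 97.1 to 101 in control, and Fst 67.2 to 82.6 and 31.3 to 34.1.

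Other secreted antagonists rose with Inf as well. Of the 6 tested genes of this group, 4 were called higher in Inf (Fst, Fstl1, Grem1 and Nbl1) and 1 lower (Chrd). Of all genes tested, 16.3% were called higher in Inf and 15.3% lower. Fstl1 was measured with the highest counts of the pathway, at 1087, 1086 and 1092 CPM in control, 940.0, 899 and 895 with IL-4/13, 2130.2, 2191 and 2110.4 with Inf and 1784, 1771 and 1790.4 with both. No conditions overlapped. Inf upregulated Fstl1 (0.98, SE 0.0349, adjusted p = 1.8e-20), and IL-4/13 lowered it without Inf (-0.26, SE 0.0348, adjusted p = 4.7e-06) and with it (-0.27, SE 0.0346, adjusted p = 7.3e-07). Both lie close to the fold threshold, and the first was no longer called without IL-4/13 replicate 2 or 3, nor the second without Inf replicate 2. Grem1 stood at 345 ± 9.42 CPM in control, 378 ± 18.3 with IL-4/13, 606 ± 28.6 with Inf and 649 ± 4.59 with both, and was called higher in Inf (0.81, SE 0.0428, adjusted p = 4.3e-16) and in IL-4/13 + Inf (0.91).

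The remaining antagonists stood below 4 CPM per kb in every condition. Nbl1, which encodes the BMP antagonist DAN, read 2.69, 3.97 and 3.78 CPM in control, 2.68, 3.11 and 1.98 with IL-4/13, 7.64, 7.21 and 9.46 with Inf and 4.61, 4.05 and 3.51 with both. Inf libraries were above all others, and those of IL-4/13 + Inf overlapped with control. Nbl1 was called higher in Inf than in control (1.22, SE 0.182, adjusted p = 2.2e-06) and lower in IL-4/13 + Inf than in Inf (-0.98, SE 0.177, adjusted p = 9.9e-05). Chrd, the gene of the BMP antagonist chordin, was at 2.29, 1.92 and 2.34 CPM in control, 1.29, 1.88 and 2.35 with IL-4/13, 1.2, 1.12 and 0.546 with Inf and 1.29, 0.899 and 1.01 with both. Both conditions with Inf lay below control, Inf by a log2 value of -1.18 (SE 0.319, adjusted p = 0.0032) and IL-4/13 + Inf by -1.02 (SE 0.312, adjusted p = 0.011), the second call being lost without IL-4/13 + Inf replicate 2. Nog, which encodes noggin, had between 2 and 25 counts per library. Its CPM was 0.629, 0.93 and 0.9 in control, 0.589, 0.259 and 0.147 with IL-4/13, 0.532, 1.22 and 1.39 with Inf and 0.446, 0.562 and 0.202 with both. The Inf and IL-4/13 + Inf libraries overlapped, and the call between them (-1.35, SE 0.472, adjusted p = 0.039) was lost under DESeq2 and without Inf replicate 2 or 3 or IL-4/13 + Inf replicate 1 or 3. The summed counts were 22 in IL-4/13 + Inf and 56 in Inf, a depth-adjusted ratio of 0.388 with an exact 95% interval from 0.225 to 0.645 for counting error alone.

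Bmp1 encodes not a BMP but a procollagen C-proteinase that also cleaves chordin and LTBP1. It went from 178 ± 7.72 CPM in control to 312 ± 14.1 in Inf (0.81, SE 0.0478, adjusted p = 7.4e-15) and 333 ± 12.8 in IL-4/13 + Inf (0.90, SE 0.0478, adjusted p = 4.6e-16), and stood at 190.2 ± 9.46 in IL-4/13. Gdf15, the gene of a stress-induced divergent ligand, had 1.73 ± 0.199 CPM in control and was not called in any comparison.

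Among the SMAD genes, log2 fold changes against control lay between -0.80 and 0.33. Smad3, which transduces TGF-β and activin signals, read 87.3, 88.8 and 90.0 CPM in control, 84.3, 78.7 and 78.4 with IL-4/13, 74.0, 74.8 and 61.9 with Inf and 50.6, 53.2 and 52.3 with both. The 4 conditions did not overlap. Smad3 was called lower in Inf than in control (-0.33, SE 0.0609, adjusted p = 4.2e-05) and lower in IL-4/13 + Inf than in Inf (-0.43, SE 0.0630, adjusted p = 4.8e-06), whereas the change with IL-4/13 alone, -0.14 (adjusted p = 0.18), was not called. Smad2, Smad4 and Smad5 were not called in any comparison, with log2 fold changes against control between -0.22 and 0.02. Smad2 passed the p threshold in Inf (-0.22, adjusted p = 0.0011) and in IL-4/13 + Inf (-0.17, adjusted p = 0.014) but not the fold threshold. Smad1, a BMP-responsive SMAD, went from 54.6 ± 1.75 CPM in control to 68.7 ± 2.92 in Inf (0.33, SE 0.0599, adjusted p = 3.5e-05).

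The inhibitory SMADs bind activated type I receptors and block signalling. Smad6, which acts mainly on BMP signalling, was at 9.43, 7.19 and 8.22 CPM in control, 7.23, 4.34 and 7.50 with IL-4/13, 6.58, 7.06 and 10.1 with Inf and 5.55, 4.83 and 3.71 with both. IL-4/13 + Inf lay below control (-0.80, SE 0.201, adjusted p = 0.0033) and below Inf (-0.73, SE 0.202, adjusted p = 0.011) without overlap, the latter call being lost without Inf replicate 3 or IL-4/13 + Inf replicate 3. Smad7 stood at 25.2 ± 2.06 CPM in control, 22.7 ± 1.42 with IL-4/13, 20.3 ± 0.713 with Inf and 21 ± 1.71 with both, and was called lower in Inf (-0.31, adjusted p = 0.0043) and in IL-4/13 + Inf (-0.26, adjusted p = 0.020), the second call being lost without control replicate 1 or 3 or IL-4/13 + Inf replicate 3. Of the co-repressors, Skil, which encodes SnoN, rose from 104 ± 4.64 to 146 ± 8.70 CPM with Inf (0.49, SE 0.0531, adjusted p = 6.2e-09) and stood at 156 ± 9.53 in IL-4/13 + Inf. Tgif1, a homeobox co-repressor, was at 106 to 120 CPM on average in the 4 conditions and was not called in any comparison. It passed the p threshold in IL-4/13 + Inf against control (-0.18, adjusted p = 0.0066) and against Inf (-0.17, adjusted p = 0.016) but not the fold threshold.

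Of the target genes, the Id genes encode inhibitors of helix-loop-helix factors and are induced by BMP through SMAD1 and SMAD5, and Tgfbi, which encodes a secreted matrix protein, was named for its induction by TGF-β. Promoter sequences are shown for Id2, Id3 and Tgfbi, because these are the targets whose response to IL-4/13 differed with Inf. Each run holds the 250 bases before the RefSeq start site on GRCm38.p6, read 5′ to 3′ on the gene's strand, and capitals mark the SMAD-binding element CAGAC or its reverse complement GTCTG and the GC-rich SMAD1/5 element GGCGCC.
Id2 (ENSMUSG00000020644), chr12:25096093-25096342, minus strand: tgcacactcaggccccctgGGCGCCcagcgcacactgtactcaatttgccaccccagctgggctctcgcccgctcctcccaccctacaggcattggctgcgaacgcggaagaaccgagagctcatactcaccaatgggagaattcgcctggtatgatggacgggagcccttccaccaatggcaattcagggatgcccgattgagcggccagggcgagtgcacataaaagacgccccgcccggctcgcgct
Id3 (ENSMUSG00000007872), chr4:136143572-136143821, plus strand: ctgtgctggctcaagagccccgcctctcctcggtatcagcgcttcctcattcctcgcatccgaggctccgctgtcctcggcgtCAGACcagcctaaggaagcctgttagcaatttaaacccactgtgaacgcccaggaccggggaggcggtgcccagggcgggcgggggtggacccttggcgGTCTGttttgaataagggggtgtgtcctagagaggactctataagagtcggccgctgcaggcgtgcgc
Tgfbi (ENSMUSG00000035493), chr13:56609336-56609585, plus strand: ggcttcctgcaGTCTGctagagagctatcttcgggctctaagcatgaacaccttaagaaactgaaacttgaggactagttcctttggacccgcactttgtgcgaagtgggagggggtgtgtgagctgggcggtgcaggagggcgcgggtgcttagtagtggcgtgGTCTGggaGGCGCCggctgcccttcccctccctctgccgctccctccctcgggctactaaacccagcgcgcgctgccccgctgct

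The Id2 window holds GGCGCC at -231, the Id3 window CAGAC at -167 and GTCTG at -68, and the Tgfbi window GTCTG at -239 and -85 and GGCGCC at -77, counted from the start site. These are short motifs. Searched on both strands, CAGAC occurs in 42.2% of the 32851 RefSeq promoters of the same length and GGCGCC in 9.59%, and of the 31 pathway genes with an entry they occur in 16 and 10. The letters describe the windows, and occupancy was not measured.

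Id1 was lower in every treated condition. Its CPM was 52.4, 49.2 and 48.3 in control, 39.4, 39.9 and 44.3 with IL-4/13, 40.2, 36.4 and 47.0 with Inf and 37.3, 35.1 and 38.5 with both. All treated libraries lay below all control libraries, and the Inf libraries overlapped with those of the other treated conditions. Log2 fold changes against control were -0.28 (SE 0.0770, adjusted p = 0.018) in IL-4/13, -0.28 (SE 0.0764, adjusted p = 0.0033) in Inf and -0.44 (SE 0.0770, adjusted p = 3.3e-05) in IL-4/13 + Inf. The first call was lost without control replicate 1 or IL-4/13 replicate 1 or 2 and the second without control replicate 1 or Inf replicate 2.

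Id2 and Id3 moved in opposite directions. Id2 was at 18.2, 17.8 and 15.5 CPM in control, 14.5, 15.4 and 11.9 with IL-4/13, 7.84, 7.94 and 9.88 with Inf and 15.5, 13.2 and 16.9 with both. The Inf libraries were below all others, and those of IL-4/13 + Inf overlapped with control. Inf lowered Id2 (-1.01, SE 0.122, adjusted p = 5.4e-08), and with IL-4/13 added to Inf it was higher than with Inf alone (0.83, SE 0.123, adjusted p = 7.2e-06). Id3 read 46.0, 49.2 and 44.8 CPM in control, 41.4, 41.7 and 45.5 with IL-4/13, 114, 113 and 138 with Inf and 87.9, 83.0 and 79.1 with both. Every library with Inf was above every library without it (Inf against control 1.38, SE 0.0691, adjusted p = 1.1e-15), and IL-4/13 + Inf was below Inf (-0.54, SE 0.0657, adjusted p = 4.6e-07). Per kb of exon, Id1 was the most abundant of the 3 in control (56.5% ± 1.44) and Id3 in Inf (63.5% ± 1.01), while Id2 went from 9.22% ± 0.458 to 3.28% ± 0.0919.

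Tgfbi had, in IL-4/13 + Inf, the lowest log2 fold change of the 38 tested genes in any comparison against control. It was at 96.9, 93.6 and 91.6 CPM in control, 85.3, 80.5 and 91.7 with IL-4/13, 30.0, 33.3 and 29.0 with Inf and 17.2, 17.9 and 16.5 with both. The Inf libraries lay below control, and those of IL-4/13 + Inf below Inf, without overlap. The log2 fold change against control was -1.61 (SE 0.0647, adjusted p = 4.0e-19) in Inf and -2.45 (SE 0.0695, adjusted p = 4.5e-23) in IL-4/13 + Inf, and that of IL-4/13 + Inf against Inf was -0.84 (SE 0.0751, adjusted p = 6.5e-10). With IL-4/13 alone it was -0.13 (adjusted p = 0.19) and not called.

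**Figure D4:**
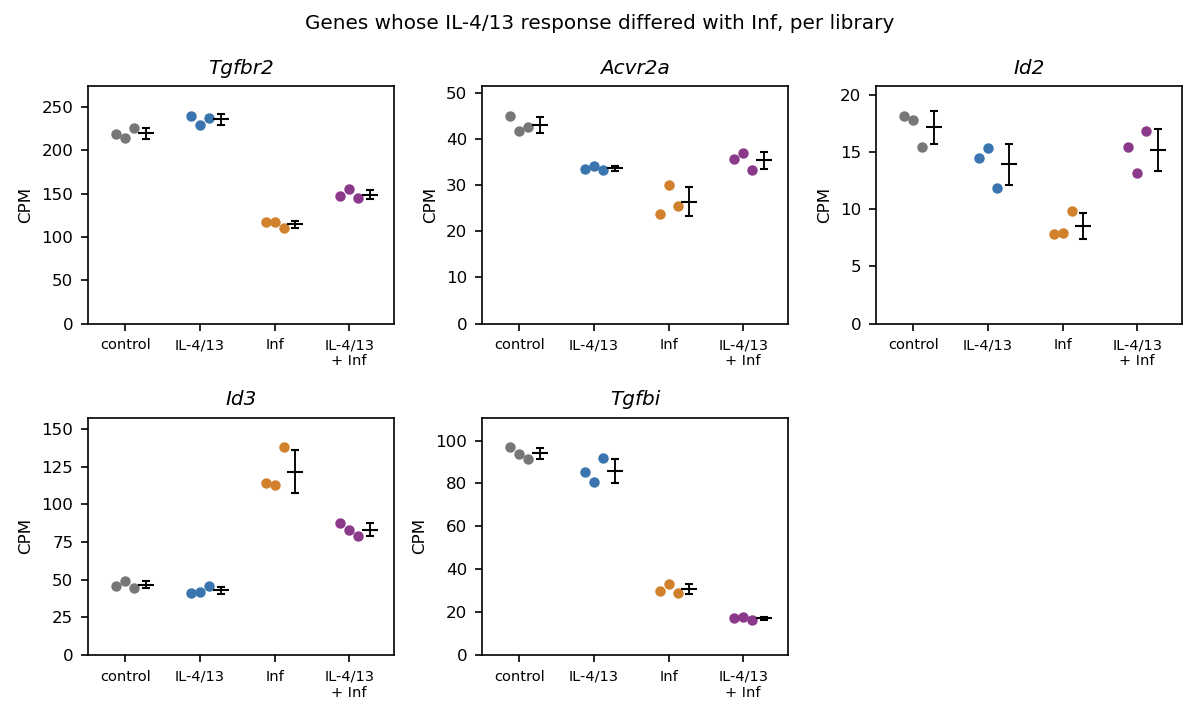
CPM of Tgfbr2, Acvr2a, Id2, Id3 and Tgfbi in the 12 libraries (points), with the mean and SD of each condition (n = 3) beside them, on axes that start at 0. For Id2, IL-4/13 + Inf spans 13.2 to 16.9 CPM and Inf 7.84 to 9.88, while IL-4/13 alone spans 11.9 to 15.4 and control 15.5 to 18.2.

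A direct test asked if IL-4/13 acted otherwise in the presence of Inf, as the interaction of both treatments: the log2 fold change of IL-4/13 + Inf against Inf minus that of IL-4/13 against control. For 3 pathway genes the difference was called positive and for 2 negative, beside 1.52% and 1.59% of all genes tested. The 2 negative calls became 1 without IL-4/13 replicate 3 and 4 without Inf replicate 3. Id2 had the largest, 1.12 (SE 0.169, adjusted p = 6.3e-05), with a response of -0.29 without Inf and 0.83 with it. Acvr2a came next at 0.77 (SE 0.109, adjusted p = 2.4e-05), with responses of -0.36 and 0.41, both called. Exons of Acvr2a share 7.84% of their length with Orc4 on the other strand, which held 10258 counts to 7029 for Acvr2a and whose own interaction was 0.11 (adjusted p = 0.73). Orc4 moved as Acvr2a did in Inf (-0.24, adjusted p = 0.011) and in IL-4/13 + Inf against Inf (0.20, adjusted p = 0.065). With IL-4/13 alone it did not (0.09, adjusted p = 0.59). The part of Orc4 reads in the Acvr2a counts was not tested. Tgfbr2 followed at 0.28 (SE 0.0637, adjusted p = 0.0089), which was lost without IL-4/13 + Inf replicate 2. In the other direction, Tgfbi had -0.71 (SE 0.0960, adjusted p = 1.4e-05), with responses of -0.13 and -0.84, and Id3 -0.42 (SE 0.0990, adjusted p = 0.013), which was lost without IL-4/13 replicate 3.

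For most of the pathway no such difference was called. Fstl1 gave -0.01 (SE 0.0490) and Inhbb 0.14 (SE 0.0801), with responses to IL-4/13 of -0.26 without and -0.27 with Inf for the former and of 0.43 and 0.57 for the latter. Smad3, at -0.30 (SE 0.0875, adjusted p = 0.057), missed the p threshold. Between the 2 responses, which share no library, Pearson's r across the 38 genes was 0.59 and Spearman's rho 0.47, beside 0.40 and 0.40 across all 14810 genes tested, where genes are not independent replicates and all values come from libraries scaled together.

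**Figure D5:**
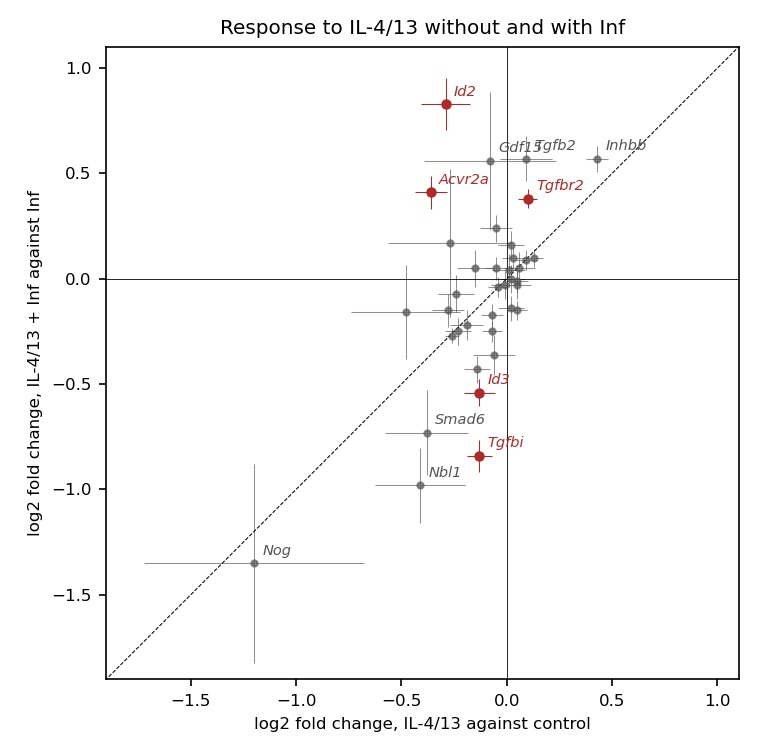
Log2 fold change of IL-4/13 against control (x axis) and of IL-4/13 + Inf against Inf (y axis) for the 38 tested pathway genes, with standard errors. The dashed line marks equal responses, and the 5 genes called for the interaction are drawn in red: Id2, Acvr2a and Tgfbr2 lie above the line, Id3 and Tgfbi below it.

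A wider list of 50 tested genes of the same pathway, which adds further ligands, receptors, extracellular regulators, SMAD co-factors and targets, was counted in the same fit. With IL-4/13 alone 2 were called higher and 6 lower (4% and 12%, beside 2.78% and 2.57% of all genes tested), and with Inf 15 and 17 (30% and 34%, beside 16.3% and 15.3%). IL-4/13 + Inf gave 15 and 16 against control (beside 13.4% and 11.5%) and 4 and 14 against Inf (beside 7.55% and 7.00%), and the interaction 1 and 2 (beside 1.52% and 1.59%). The list's median log2 fold changes lay between -0.06 and 0.05 in the 5 comparisons. Chrdl1, which encodes a chordin-like BMP antagonist, was raised by IL-4/13. It stood at 4.40, 4.96 and 3.48 CPM in control, 21.2, 22.7 and 15.9 with IL-4/13, 0.731, 0.828 and 0.909 with Inf and 7.54, 7.36 and 4.25 with both. The log2 fold changes for IL-4/13 were 2.22 (SE 0.177, adjusted p = 1.9e-09) without Inf and 2.96 (SE 0.266, adjusted p = 8.7e-09) with it, whereas that of Inf against control was -2.36 (SE 0.287, adjusted p = 2.6e-07).

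Among genes that release or hold latent TGF-β, Thbs1 (thrombospondin 1, an activator of latent TGF-β) changed by 1.40 on the log2 scale (SE 0.0658, adjusted p = 2.1e-10) in Inf, and Lrrc32 (GARP, a cell-surface anchor of latent TGF-β) by 1.64 (SE 0.139, adjusted p = 3.5e-11). Lrrc32 was at 4.74, 5.02 and 4.14 CPM in control, 3.91, 4.15 and 4.41 with IL-4/13, 16.1, 14.8 and 12.4 with Inf and 7.39, 6.46 and 5.80 with both, and its interaction was -0.96 (SE 0.212, adjusted p = 0.0056). Tsc22d1, a target gene on this list that is named here after its values were seen, was also called for the interaction (-0.34).

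Of the other targets on that list, Klf10, a TGF-β early response gene, fell by 1.27 on the log2 scale with Inf (SE 0.0927, adjusted p = 4.4e-10). Hey1 and Id4 had at most 26 counts in any library. Hey1 gave a depth-adjusted ratio of Inf to control of 3.20 (exact 95% interval 1.80 to 5.99) and Id4 one of 0.483 (0.308 to 0.744). The ligand gene Bmp5 had 46 counts over the control libraries and 4 over the Inf libraries, a ratio of 0.0840 (0.0220 to 0.230).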

How the data were processed

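RNA-seq of polyadenylated RNA from 3T3-L1 cells was analysed in 12 libraries, 3 in each of 4 conditions. Per the labels, the authors aligned the reads to GRCm39 with STAR and counted them per gene with featureCounts, and deposited raw counts. Versions, annotation and the strand setting are not given in the sources used here. The pathway genes, the wider list and the markers were chosen with earlier results of these data known. Counts of all libraries were fitted together with edgeR 4.0.16 (TMM scaling, filterByExpr by condition with a minimum count of 10, quasi-likelihood test, robust), with p-values adjusted over the 14810 genes that passed the filter. Standard errors (SE) are the absolute log2 fold change over the square root of that test's F statistic. The script was tested on simulated counts. CPM used TMM-scaled totals of these genes. Levels between genes were compared per kb of exon union from GENCODE M21 on GRCm38, lengths only. Every pathway gene is named, and values per library are given for those called in IL-4/13 against control, IL-4/13 + Inf against Inf or the interaction, or called with a log2 fold change of at least 1 against control. Genes of the wider list are named at that size in any comparison, at most 8. Tsc22d1 is named besides, after its values were seen. Some genes of that list are not reported here. Total counts of 13446005 to 20775769 per library set the precision, and intervals on counts cover counting error only. Alternatives were DESeq2 1.42.0, other scaling and filters, a replicate block, only the groups compared, a log2 threshold of 1 and leaving out each library. Promoters are RefSeq sequences on GRCm38.p6, with motifs searched as exact letters.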

Additional observations from a re-analysis of the deposited data

Results flagged for a closer look

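By edgeR's test of the interaction, the change made by IL-4/13 was not the same with Inf as without for 5 pathway genes and for Lrrc32 of the wider list. The log2 response with Inf minus that without was 1.12 for Id2 (13.9 against 17.2 CPM without Inf and 15.2 against 8.55 with it), 0.77 for Acvr2a (33.6 against 43.1 and 35.3 against 26.4) and 0.28 for Tgfbr2 (236 against 219.7 and 149 against 115). It was -0.71 for Tgfbi (85.8 against 94.0 CPM without Inf and 17.2 against 30.7 with it) and -0.42 for Id3 (42.9 against 46.7 and 83.3 against 122). For Lrrc32 it was -0.96. The reason for these differences was not tested.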

How the results depend on the processing

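Requiring a log2 fold change beyond 1 left these counts of called genes (higher, then lower): 0 and 0 for IL-4/13 against control, 3 and 6 for Inf, 2 and 6 for IL-4/13 + Inf against control, 0 and 1 against Inf, and 1 and 0 for the interaction. Over all 14810 genes tested it left 108, 1095, 1096, 238 and 40 calls in these comparisons, both directions together. This setting by its construction drops smaller changes. With no filter on low counts, 4 genes were called negative for the interaction, since Ltbp2 and Smad3 joined. Under the other tools, scalings, filters and sample choices, every count stayed within 1.5 times the reported one. Leaving out each library in turn gave 1 higher and 1 to 6 lower for IL-4/13, 12 higher and 12 to 15 lower for Inf, 10 higher and 11 to 14 lower for IL-4/13 + Inf against control, 5 to 7 higher and 5 to 9 lower against Inf, and 2 to 4 positive and 1 to 4 negative for the interaction. Over the 15099 to 15161 genes then tested, calls in both directions numbered 584 to 879 for IL-4/13 and 4432 to 4802 for Inf. For IL-4/13 + Inf they numbered 3467 to 3768 against control and 1798 to 2248 against Inf, and for the interaction 342 to 653. Of 1111 values of the 56 single-gene calls under the alternatives, 1041 kept direction and call, 70 kept only direction and 0 reversed; without the threshold of 1, calls were lost in 33 of 1055. The causes were not tested. Depth limits genes such as Nog, Hey1 and Id4, with at most 25, 23 and 26 counts in a library, and Chrd, with at most 40.

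Replicate numbers did not mark shared deviations (correlations from -0.146 to 0.0543 for the 18 pairs with the same number and from -0.109 to 0.16 for the 36 with different numbers, and 0 of the 12 libraries correlated best with its own number). With the replicate block, 1 and 3 genes were called higher and lower for IL-4/13, 12 and 13 for Inf, 10 and 13 for IL-4/13 + Inf against control, 5 and 8 against Inf (Nog no longer called), and 3 and 2 for the interaction. Over all 14810 genes tested the block gave 717, 4619, 3610, 2069 and 410 calls in these comparisons, both directions together.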
